A study of Mus musculus with 10 samples.

Results

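Connexins and pannexins are the channel proteins through which neighbouring skin cells exchange small molecules, or release them to the outside. The 6 genes described here are Gjb2, Gjb6, Gjb5 and Gja1, which encode connexins, and Panx1 and Panx3, which encode pannexins. They were taken by symbol from tables of 23282 entries per library, of which 11536 passed the filter on low values (a value of at least 5 in at least 5 of the 10 libraries). All 6 passed, Gjb6 with exactly 5 libraries at that value. The genes were chosen with earlier results on the same libraries known, so their differences between genotypes and the adjusted p-values beside them are descriptions and support nothing.

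All libraries were made from whole skin of 5-month-old mice on the C57BL/6 background. In 5 of them STAT3, a transcription factor downstream of cytokine and growth factor receptors, had been ablated in keratinocytes (STAT3cKO), and 5 were wild type (WT). The sources used here give neither the Cre driver nor the deleted exons nor the sex of the mice. They do not say whether every library had a mouse of its own, and a p-value here reflects only library-to-library spread, some of it possibly technical. Whole skin mixes epidermis, follicles, dermis, fat and muscle, and in such samples fewer cells of a type and less RNA per cell cannot be told apart.

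Connexins assemble into half-channels that dock between adjacent cells as gap junctions. Keratinocytes change their set of connexins as they leave the basal layer and differentiate, and the follicle uses several of the same ones. Pannexins resemble them in fold but mostly work as single-membrane channels that release ATP. Inherited mutations in Gjb2, Gjb6 and Gja1 cause skin disorders in people, in several cases with deafness.

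The deposited values behave as log2 of scaled reads plus 1, and the kit reads the 3′ end of each transcript. Estimated depth was 7190000 to 16600000 reads in WT and 7520000 to 18300000 in STAT3cKO. A single read was worth 0.57 to 1.501 on the linear scale, so a value near 1 is about a single read. STAT3cKO 2, WT 3, STAT3cKO 3 and WT 5 had no read for 2617, 1273, 1097 and 983 of the 11536 tested genes, against 83 in WT 4, so a missing read says least in those libraries. Stat3 lay at 9.08 to 10.3 in WT and at 9.49 to 10.8 in STAT3cKO (difference 0.41, SE 0.36). This does not check the labels, since the deleted exons are not known here and the skin also holds cells outside the ablation. Over all tested genes limma called 0.988% at a Benjamini-Hochberg adjusted p under 0.05, 10.9% had an unadjusted p under 0.05, and in 3.42% the 2 groups did not overlap.

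Of the 6 genes, Panx3 alone passed limma's threshold, and it was higher in STAT3cKO. The share of all tested genes called higher was 0.529% and the share called lower 0.459%, and nothing is read from the comparison, since the choice of genes used this contrast. The adjusted p-values of the 6 ran from 0.0405 for Panx3 to 0.984 for Gjb5. The difference was positive for 4 of the 6, with a median of 1.2 on the log2 scale, while 43.8% of all tested genes had a positive difference and their median was −0.16.

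**Figure D1:**
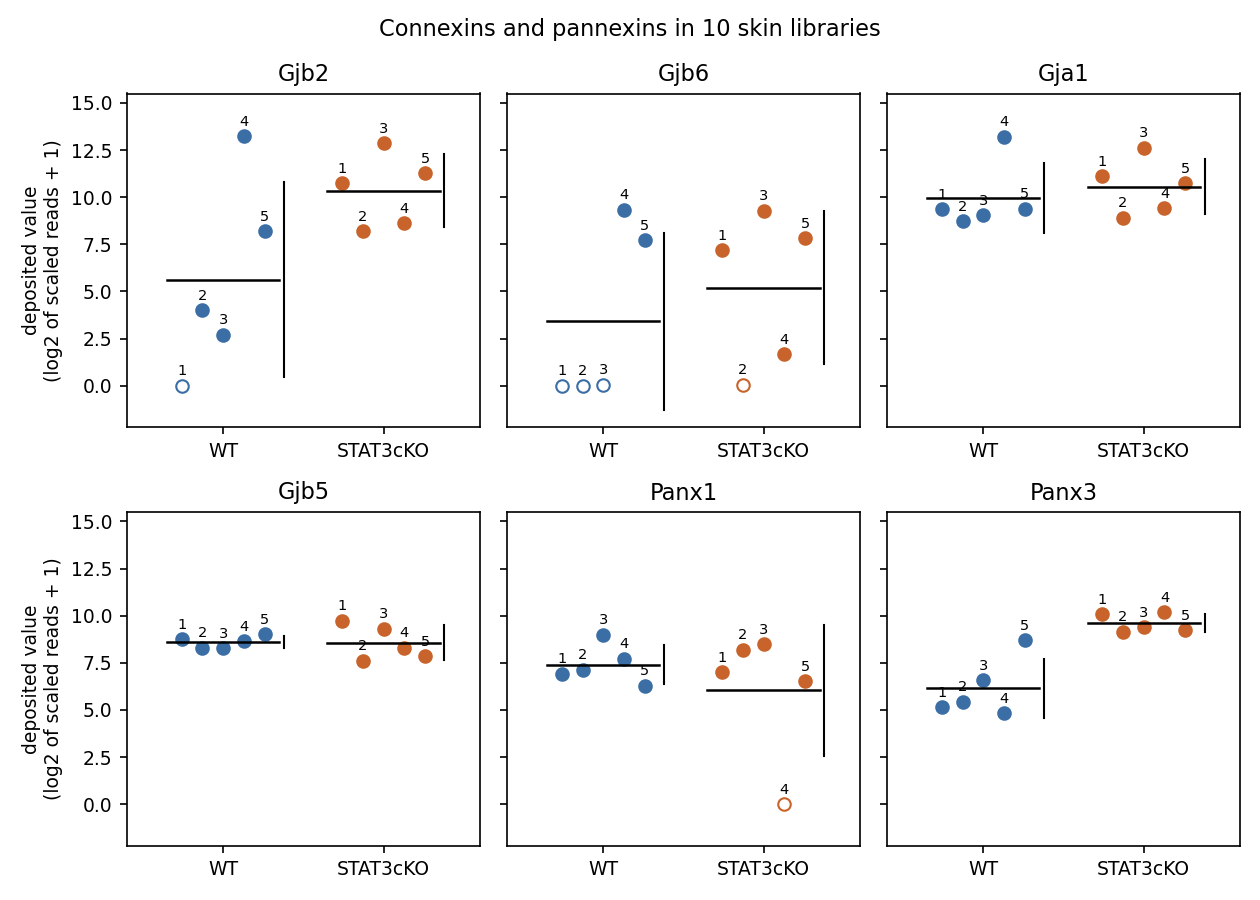
Deposited value (log2 of scaled reads plus 1) of each gene in the 5 WT and 5 STAT3cKO libraries, with points numbered by library, open points for libraries without a read, horizontal lines at the group mean and vertical lines for 1 SD to each side. Panx3 separates the groups, Gjb2, Gjb6 and Gja1 spread widely inside each group, and Panx1 has 1 STAT3cKO library without a read.

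Gjb2 encodes the connexin whose loss is a leading cause of inherited deafness, and in skin it marks follicles, sweat ducts and activated epidermis. The gene lies at 57098600 to 57104702 on the minus strand of chromosome 14 (mm10). From WT 1 to WT 5 the values were 0.00, 3.99, 2.69, 13.22 and 8.18, and from STAT3cKO 1 to STAT3cKO 5 they were 10.76, 8.19, 12.86, 8.61 and 11.29. WT 4 was the highest of all 10 libraries and WT 1 to 3 were the lowest, so every STAT3cKO value lay inside the WT range. In reads, this was 8060 in WT 4 against 0, 19 and 4 in WT 1 to 3. A count of 0 in WT 1 allows up to 3 reads, and such limits cover counting error only. The mean was higher in STAT3cKO by 4.72 (SE 2.30, 95% interval −0.46 to 9.90, n = 5 per group). Without WT 4 the difference was 6.62 (SE 1.45), and this was the one fit without a single library in which limma called Gjb2 (adjusted p = 0.0228).

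Gjb6 (57123303 to 57133611, minus strand) lies 18.6 kb from Gjb2 on chromosome 14 and encodes its partner in mixed channels of the inner ear and epidermis. Its values were 0.00, 0.00, 0.06, 9.33 and 7.72 in WT and 7.18, 0.06, 9.27, 1.67 and 7.82 in STAT3cKO. WT 1 to 3 and STAT3cKO 2 had no read of it, STAT3cKO 4 had 3 reads, and the other 5 libraries had 118 to 576. Its reads were thus either plainly present or close to absent in both genotypes, although a missing read says least in STAT3cKO 2 and WT 3. The difference of 1.78 (SE 2.38) was smaller than its error. Leaving out 1 library moved it from 0.76 (without STAT3cKO 3) to 3.26 (without WT 4), and by over 1.5 times also without any of WT 1, 2, 3 and 5 and STAT3cKO 2 and 5.

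Gja1 (chromosome 10, 56377330 to 56402513, plus strand) encodes the most widely expressed connexin, found in basal and spinous keratinocytes, fibroblasts, follicles and vessel walls. Its values were 9.36, 8.71, 9.04, 13.21 and 9.39 in WT and 11.11, 8.91, 12.63, 9.42 and 10.73 in STAT3cKO. Every library carried it, WT 4 and STAT3cKO 3 most and WT 2 least. The difference was 0.62 (SE 0.96, 95% interval −1.53 to 2.77), with 1.44 without WT 4, 1.03 without STAT3cKO 2, 0.31 without WT 2, 0.39 without WT 3 and 0.10 without STAT3cKO 3.

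Gjb2, Gjb6 and Gja1 were high in the same libraries. Beside them stood genes of the hair shaft and its inner root sheath, which are made in growing follicles. That list had 9 of 18 genes tested, none without a read in every library. The list mean per WT library was 1.15, 1.39, 6.40, 14.53 and 4.11, and per STAT3cKO library 10.81, 0.20, 14.36, 0.63 and 10.81, numbered 1 to 5 in that order. In the 4 libraries with a list mean above 10 (WT 4 and STAT3cKO 1, 3 and 5), Gjb2 ran from 10.76 to 13.22, against at most 8.61 in the other 6. Gja1 ran from 10.73 to 13.21 in the 4 and from 8.71 to 9.42 in the 6, and Gjb6 from 7.18 to 9.33 and from 0.00 to 7.72, the last in WT 5. Gjb5 did not separate them, at 7.86 to 9.74 and 7.61 to 9.02.

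The libraries with high hair keratins were 1 of 5 in WT and 3 of 5 in STAT3cKO, so hair content and genotype were unequally mixed. Among these 4 libraries alone, the difference turned to −1.59 for Gjb2, −1.24 for Gjb6 and −1.72 for Gja1, with a lone WT library that is assumed to vary like the others. Among the other 6 it was 4.69 for Gjb2 (SE 2.70), −1.08 for Gjb6 (SE 2.98) and 0.04 for Gja1 (SE 0.57). These splits were chosen after the values were seen, and the part of hair growth in the differences was not tested.

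**Figure D2:**
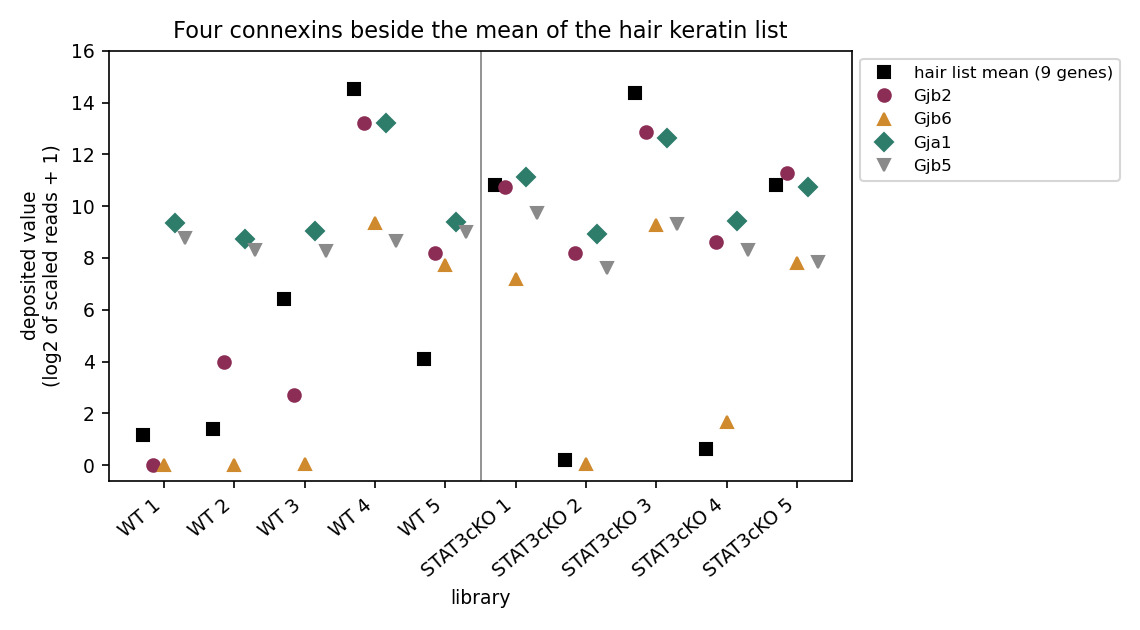
Deposited value (log2 of scaled reads plus 1) of Gjb2, Gjb6, Gja1 and Gjb5, and the mean of the 9 tested hair keratin list genes, in each library, with WT left and STAT3cKO right of the line. Gjb2 and Gja1 peak where the hair list does, in WT 4 and STAT3cKO 1, 3 and 5, while Gjb5 stays between 7.61 and 9.74.

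The stretches before the starts of these 3 genes are shown because the genes varied together. They are the 250 bases upstream of the RefSeq start (GRCm38.p6), on the gene's strand. Capitals mark the SP-type box GGGCGG on either strand in Gjb2 (chr14:57104703-57104952, minus strand), the E-box CANNTG in Gjb6 (chr14:57133612-57133861, minus strand) and the AP-1 motif TGANTCA in Gja1 (chr10:56377050-56377299, plus strand).
Gjb2: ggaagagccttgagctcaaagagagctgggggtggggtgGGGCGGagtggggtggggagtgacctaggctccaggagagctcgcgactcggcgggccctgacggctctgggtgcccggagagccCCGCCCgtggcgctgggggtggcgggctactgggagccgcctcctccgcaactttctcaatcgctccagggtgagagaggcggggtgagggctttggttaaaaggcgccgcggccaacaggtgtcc
Gjb6: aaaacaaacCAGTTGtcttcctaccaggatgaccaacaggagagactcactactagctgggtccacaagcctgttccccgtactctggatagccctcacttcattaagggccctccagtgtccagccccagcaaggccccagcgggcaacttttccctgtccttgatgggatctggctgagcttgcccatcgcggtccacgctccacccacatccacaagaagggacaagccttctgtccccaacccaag
Gja1: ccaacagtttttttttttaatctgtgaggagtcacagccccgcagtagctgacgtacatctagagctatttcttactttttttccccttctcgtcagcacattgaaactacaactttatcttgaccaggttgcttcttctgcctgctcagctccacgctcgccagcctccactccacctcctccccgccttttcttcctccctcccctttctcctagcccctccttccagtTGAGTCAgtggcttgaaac
The Gjb2 stretch is 69.2% G and C, the Gjb6 stretch 56.8% and the Gja1 stretch 50%, with a median of 52.0% over 27025 promoters. Gjb2 holds 2 SP boxes, at 211 to 206 and at 126 to 121 bases before the start, and 32.9% of all promoters hold at least 1. Gja1 holds 1 AP-1 motif at 19 to 13 bases before the start, a motif that 6.87% of all promoters hold. An E-box is in each of the 3 stretches, as in 66% of promoters, and that of Gja1 overlaps its AP-1 motif by 2 bases. The STAT motif TTCNNNGAA, held by 7.18% of promoters, is not in these letters. The stretches of Gjb5 and Panx1 hold none of the 4 motifs. The RefSeq starts of Gja1 and Gjb5 matched no coding transcript start in GENCODE, so their stretches and motif positions hold for the RefSeq start alone. All motifs were searched on both strands, and a match is a description of letters, not of binding.

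Gjb5, a connexin of suprabasal epidermis and placenta, had the smallest spread of the 6 in WT (SD 0.32, n = 5), and the difference closest to 0. The gene lies at 127354809 to 127358181 on the minus strand of chromosome 4. It stood at 8.77, 8.31, 8.27, 8.66 and 9.02 in WT and at 9.74, 7.61, 9.31, 8.31 and 7.86 in STAT3cKO. WT spanned less than 1 on the log2 scale, and STAT3cKO reached both above and below it. The difference was −0.04 (SE 0.51, 95% interval −1.11 to 1.03), and the interval takes in a 2-fold change in either direction.

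Beside the 6, the list of the other 17 connexin and pannexin genes had 3 that passed the filter. Limma called 0.529% of all tested genes higher and 0.459% lower. Of the 3, 1 rose, 0 fell and 2 did not pass limma's test. Gjc1, a connexin of vessel walls, was among the 2. It had values of 0.08 to 6.42 in WT and 1.06 to 7.19 in STAT3cKO and a difference of 1.40 (SE 1.95, limma adjusted p = 0.814).

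**Figure D3:**
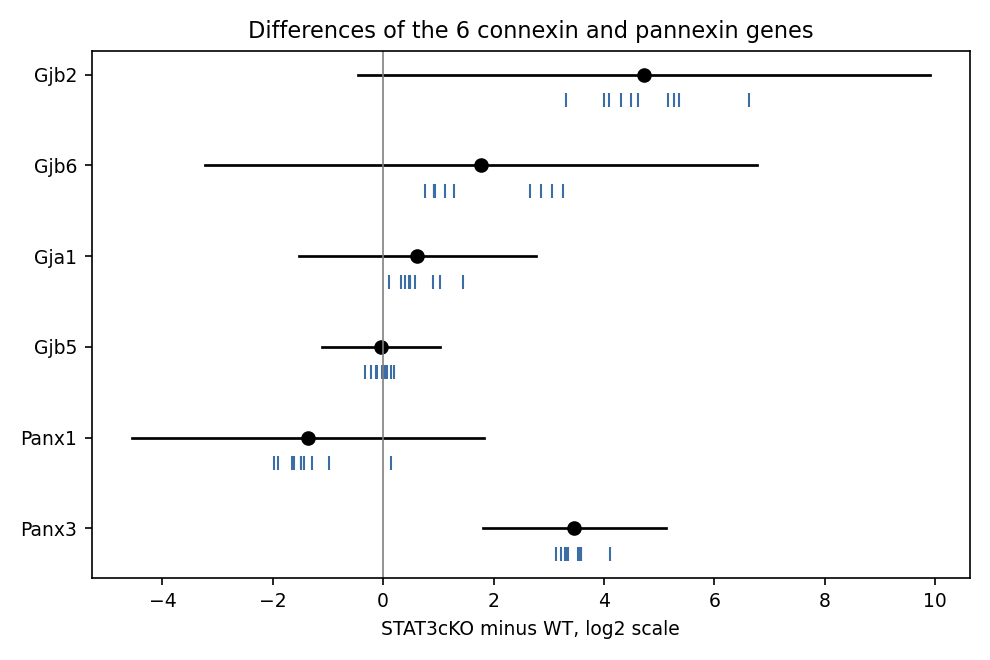
STAT3cKO minus WT on the log2 scale for the 6 genes, with points for the difference, bars for the 95% interval and blue ticks for the 10 fits that each left out 1 library. Gjb5 lies at −0.04 and Panx3 at 3.46, and the bars of Gjb2 and Gjb6 span more than 9 units.

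Panx3 (chromosome 9, 37659902 to 37669235, minus strand) encodes a pannexin best known from cartilage and bone and also made by differentiating keratinocytes. It was at 5.15, 5.44, 6.59, 4.83 and 8.69 in WT and at 10.09, 9.14, 9.38, 10.18 and 9.24 in STAT3cKO. The lowest STAT3cKO value exceeded the highest WT value, as in 1.71% of tested genes, and WT 5 stood apart from the other WT libraries towards the STAT3cKO values. In reads, WT had 23 to 274 and STAT3cKO 403 to 1562. The mean went from 6.14 ± 1.57 to 9.60 ± 0.49 (SD, n = 5 each), 11-fold on this scale, with a difference of 3.46 (SE 0.79, 95% interval 1.81 to 5.12, limma adjusted p = 0.0405).

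The difference of Panx3 stayed between 3.14 and 4.10 when any 1 library was left out. Its call held without WT 4, WT 5 or STAT3cKO 2 and was lost without any of the other 7 (adjusted p of 0.0511 to 0.158). It was also lost with no filter on low values (0.0617), without limma's trend and robust estimation (0.122) and with the replicate number as a block (0.116), and over all 22 alternatives it held in 10. Its values ran from 4.83 to 10.1 in the 4 libraries with high hair keratins and from 5.15 to 10.2 in the other 6. Each of these classes held both genotypes. WT 4 had the highest hair list mean and the lowest Panx3. The difference was 4.74 among the 4 libraries with high hair keratins, where WT 4 was the only WT library, so it holds no spread of WT. Among the other 6 the difference was 3.19 (SE 1.3, limma adjusted p = 0.411). The part of hair growth in the difference of Panx3 was not tested. Of 6 cartilage and bone genes none passed the filter. Their list mean was 0.03 to 1.32 in WT and 0.21 to 1.68 in STAT3cKO. Col2a1, Sp7 and Ibsp had no read in any library, which lowers that mean. The highest value of any list member in a library was above 5, so the list was not silent throughout.

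The mean of suprabasal keratinocyte markers, like Panx3, was higher in STAT3cKO. Of 14 such genes 13 were tested, none of the 13 was without a read in every library, and their mean was 11.6 to 12.4 in WT and 12.8 to 13.8 in STAT3cKO. These groups did not overlap either. Inside the groups the order was only partly shared. WT 5 was the highest WT library in both, but STAT3cKO 4 had the highest Panx3 and STAT3cKO 5 the highest list mean. The basal list (10 of 10 tested) ran from 9.03 to 10.8 and from 9.28 to 11.1. With the mean of both lists subtracted in each library, Panx3 was at −4.92 ± 1.2 in WT and −2.50 ± 0.51 in STAT3cKO (SD, n = 5 each), a difference of 2.42, and WT 5 now lay inside the STAT3cKO range. Without any 1 library the difference of Panx3 on that scale was 2.09 to 2.90. With the suprabasal list alone subtracted it was 2.01, and with the basal list alone 2.95. Subtracting a list shifts the difference of every gene by the same amount, the change of the list mean itself. That change was 1.45 for the suprabasal and 0.52 for the basal list. Any change of size or sign from the unsubtracted differences thus comes from the lists and not from a single gene. Against both lists, Gjb2 went from −5.44 ± 5.01 to −1.76 ± 1.61, a difference of 3.68 (2.39 without WT 1 and 5.58 without WT 4). Gjb5 went from −2.46 ± 0.50 to −3.54 ± 0.61, a difference of −1.08 (−0.56 with the basal list alone). Panx1 had a difference of −2.41 with an SD of 3.52 in STAT3cKO, and −0.92 without STAT3cKO 4. Gjb6 and Gja1 had no stable direction on that scale. The difference of Gjb6 was 0.73 (SD 4.46 in WT and 3.66 in STAT3cKO), between −0.22 without STAT3cKO 3 and 2.21 without WT 4. That of Gja1 was −0.42 (SD 1.88 and 1.14), −0.88 without STAT3cKO 3, 0.39 without WT 4 and 0.10 with the basal list alone. How much of the higher level of Panx3 goes with more differentiated epidermis in the sample was not tested.

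**Figure D4:**
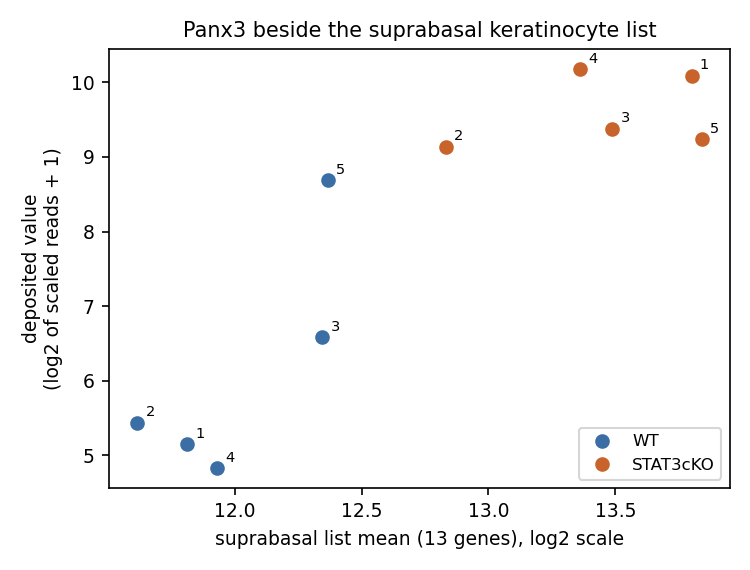
Deposited value (log2 of scaled reads plus 1) of Panx3 against the mean of the 13 tested suprabasal keratinocyte genes in the 5 WT and 5 STAT3cKO libraries, with points numbered by library. STAT3cKO libraries lie at list means of 12.8 and above, WT libraries at 12.4 and below, and WT 5 has the highest Panx3 of its group.

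Panx1 (chromosome 9, 15002128 to 15045478, minus strand) encodes the widely expressed pannexin that caspases can open in dying cells. It had values of 6.92, 7.13, 8.98, 7.72 and 6.28 in WT and 6.995, 8.19, 8.48, 0.00 and 6.52 in STAT3cKO. STAT3cKO 4 had no read where the other libraries had 51 to 372, although its estimated depth was among the 4 highest. The difference of −1.37 (SE 1.51) came to 0.14 (SE 0.94) without that library. Without it the STAT3cKO libraries lay inside the WT range.

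The last 500 bases of the annotated transcripts of the 6 genes share no stretch of 25 bases between genes (0 in each pair), and their exons overlap no other annotated gene. The coding sequences of Gjb2 and Gjb6 are the closest pair, at 76.7% identity over 677 aligned bases. By the same alignment, pairs of a connexin and a pannexin reached 71.6%, so the figure for distant pairs says little.

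Among 41 symbols of channel partners, ATP signalling and other large-pore channels, 31 were tested, of which 0 rose, 1 fell and 30 did not pass. Their median difference was 0.13. Over all tested genes limma called 0.529% higher and 0.459% lower. Of 14 tested partners of connexins, Cav1 fell. It encodes the scaffold protein of caveolae, abundant in fat and endothelium, and lies at 17306335 to 17341452 on the plus strand of chromosome 6. It was at 12.38, 12.89, 11.46, 10.64 and 11.38 in WT and 9.29, 10.29, 10.20, 10.32 and 10.12 in STAT3cKO, with no overlap, as in 1.72% of tested genes in this direction. The fall was 3.26-fold (−1.71, SE 0.39, limma adjusted p = 0.0405). The call held without WT 4 and was lost without any of the other 9 libraries (adjusted p of 0.0515 to 0.135). The adipocyte list (8 of 8 tested, none without a read in every library) was at 11.6 to 14.0 in WT and 8.75 to 12.3 in STAT3cKO, and the endothelial list at 6.54 to 8.18 and 6.04 to 8.04. The part of fat content in the fall of Cav1 was not tested.

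None of 12 tested genes of ATP release and adenosine signalling passed (0 calls by limma, 4 at an unadjusted p under 0.05). Over all tested genes the shares were 0.988% and 10.9%. P2rx4, an ATP-gated cation channel, was at 7.92, 7.65, 8.48, 7.59 and 7.03 in WT and 8.53, 9.01, 8.71, 9.81 and 9.20 in STAT3cKO. The groups did not overlap, as in 1.71% of tested genes in this direction. The difference of 1.32 (SE 0.50) had a limma adjusted p of 0.317. Adora2b, an adenosine receptor, had 5.87 to 8.38 in WT and 0.01 to 6.00 in STAT3cKO, with a difference of −4.03 (SE 1.66, limma adjusted p = 0.374). The 5 tested genes of other large-pore channels had 0 calls by limma and 0 at an unadjusted p under 0.05.

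The genes most like each of the 6 were sought over the 10 libraries after each group's mean had been subtracted, among up to 4854 genes with a mean of at least 8 and more than 3 in every library. For Gja1 they were Sprr1a, a cornified envelope precursor (Pearson's r = 0.967), Dlx3, a transcription factor of epidermis and follicle (r = 0.958), and Dct, a melanin enzyme (r = 0.954). For Gjb6 they were Rtkn (r = 0.941), the follicle factor Sox9 (r = 0.927) and the envelope precursor Ivl (r = 0.925). For Gjb2 they were Limk2, Eprs and Dhx15 (r = 0.968, 0.933 and 0.933). Panx3 was most like Kctd15, Psapl1 and Klhl22 (r = 0.934, 0.920 and 0.872), Gjb5 like Rab28, Ndufa10 and Bloc1s1 (r = 0.910, 0.876 and 0.873), and Panx1 like Map6 and Esd (r = 0.971 and 0.918). These values share libraries, depth and tissue mix, and coefficients picked as the highest of so many over 10 points are high by selection. For Panx1, STAT3cKO 4 without a read lies far from the other libraries and weighs heavily in r. Spearman's rho for these genes was 0.758 to 0.952.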

How the data were processed

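Whole-skin RNA of 5 STAT3cKO and 5 WT samples, grouped by title, was sequenced with the Lexogen QuantSeq kit, per the labels' protocols. The submitters' processing notes name Bowtie2, bedtools and mm10. Annotation, strand use and scaling were not given in the sources used here. Per gene and library, the authors deposited 1 value, which behaves as log2 of scaled reads plus 1. Unlogged sums were 9690000 to 10700000 in STAT3cKO and 10800000 to 11400000 in WT. Depth was estimated by dividing each sum by the step between low values. A gene below 0.5 of a step was taken as without a read.

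Genes with a value of at least 5 in at least 5 libraries were fitted with limma 3.58.1 in R 4.3.3 (group only, mean trend, robust) and adjusted over all 11536. Differences are STAT3cKO minus WT, with standard errors. The steps were tested on simulated data. The members and lists were chosen with earlier results of these data known. Named were the 6 genes, tested relatives, called partners and the 4 partners of lowest p, and 3 most alike genes each. Some of these are not reported here. Positions are from GENCODE release M21 of mm10, promoters from RefSeq, which held 5 of the 6 genes. Protein sequences were not used here, and coding sequences were aligned in their place.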

Additional observations from a re-analysis of the deposited data

Results flagged for a closer look

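Of 20 sets of 5 values looked at (10 genes in 2 genotypes), 3 held a library far from the other 4 of its group, and chance gives about 1 in 20. Gja1 was at 13.21 in WT 4, where the other WT libraries had 8.71 to 9.39. Panx1 was at 0 in STAT3cKO 4, where the other STAT3cKO libraries had 6.52 to 8.48. Cav1 was at 9.29 in STAT3cKO 1, where the others had 10.12 to 10.32.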

How the results depend on the processing

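The count of called genes, 114 over the whole table, was 181 after quantile normalization, 175 with a pseudocount of 16, 44 without trend or robust estimation, 174 in the 4 deeper libraries, 16 in the 6 shallower ones, 63 without the 4 libraries with high hair keratins and 31 in those alone. Without 1 library it ran from 61 (STAT3cKO 1) to 207 (WT 4), and it was also lower by over 1.5 times without WT 1 (62), WT 2 (62) or STAT3cKO 5 (72). With the replicate number as a block it was 66, and Cav1 (adjusted p = 0.0972) and Panx3 (0.116) were no longer called. Same-numbered libraries did not deviate together (r of −0.155 to 0.0159 over 5 pairs). The titles give only the number, and these correlations cannot exclude a shared origin of same-numbered libraries. The other connexins and pannexins had 0 calls instead of 1 without a filter, without trend or robust estimation, with the block, without STAT3cKO 2 and WT 3, in either depth class and in either hair class, and 0 to 1 without 1 library. The partner list had 0 instead of 1 in the same settings other than the deeper libraries, also at a mean of at least 7, and 0 to 1 without 1 library. Values that moved by more than the spread between replicates were those of Gjb2 (−1.59) and Gja1 (−1.72) among the 4 libraries with high hair keratins, and of Panx3 there (4.74) and after quantile normalization (4.97). Gjc1 reversed among those 4 libraries, to −1.77. The cause was not tested. Panx3 was 4.41 in the deeper (adjusted p = 0.0213) and 2.83 in the shallower libraries (0.596), and 3.69 without STAT3cKO 2 and WT 3 (0.0419). Missing reads limit what a 0 can show, most in STAT3cKO 2, WT 3, STAT3cKO 3 and WT 5, where 983 to 2617 of the 11536 tested genes had none.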

Other observations

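Of the 14 other connexin and pannexin genes that did not pass the filter, 5 were listed at 0 in every library, and 5 reached a value of 5 in 1 to 4 libraries. Gja3, the lens connexin gene 40.5 kb from Gjb2, was at 7.35 in WT 4, 8.27 in STAT3cKO 3 and 4.22 in STAT3cKO 5, all libraries with high hair keratins, and at no more than 0.82 in the other 7, among them STAT3cKO 1, which also had high hair keratins. Gjc3, a connexin of myelinating glia, had 455 reads in STAT3cKO 2, 154 in WT 5, 150 in STAT3cKO 4 and 67 in STAT3cKO 3. Gja4, a connexin of arterial endothelium, had 52 to 156 reads in WT 1, WT 2, STAT3cKO 1 and STAT3cKO 5 and at most 3 in the other 6. Gjb1, the connexin of liver and peripheral nerve, had 114 reads in STAT3cKO 4, 58 in STAT3cKO 5 and 45 in WT 5.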
